A study of Mus musculus with 4 samples.

Results

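The genes described here are 43 that encode the machinery of DNA replication, from the proteins that mark and license origins to the polymerases, the sliding clamp and the enzymes that make deoxynucleotides. They were chosen by name, as rows of the deposited count matrix whose gene symbol was on the list. No measured value served as a limit, but the list was drawn up with earlier results of these data known. All 43 were among the 24421 symbols of the matrix, and 41 of them passed the filter on low counts, which kept 9150 genes for testing. Orc3, with counts of 1, 0, 0 and 0 in shControl 1 and 2 and shLmna 1 and 2, and Orc4, with 5, 8, 10 and 1, did not pass it.

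The study compared B16F10 cells, a melanoma line from C57BL/6 mice, after stable lentiviral transduction and selection with puromycin. The shControl cells (2 libraries) carried an empty pLKO.5 vector, and the shLmna cells (2 libraries) carried a plasmid-derived vector with 1 short hairpin RNA (shRNA) against exon 8 of Lmna, which encodes the A-type lamins A and C. Since the control vector held no hairpin, the effect of lowering Lmna and any general effect of carrying a hairpin cannot be told apart. RNA was measured by bulk MARS-seq, in which the 3′ end of polyadenylated transcripts is counted, and the study's purpose was to see how gene expression differed once lamin A/C was downregulated. Since no label says that replicates were separate cultures, p-values measure the spread between these libraries, which may be technical.

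DNA replication is prepared in G1 and carried out in S phase. The origin recognition complex (ORC), Cdc6 and Cdt1 load a ring of the Mcm2 to Mcm7 proteins on DNA, a step called licensing, and geminin (Gmnn) blocks Cdt1 afterwards so that no origin is licensed again. Cdc45 and the GINS complex then join the ring to form the active helicase. Polymerase alpha with its primase lays down primers, polymerases delta and epsilon extend them, the PCNA clamp is loaded by replication factor C (RFC), replication protein A (RPA) covers single-stranded DNA, and Fen1 and Lig1 finish the lagging strand. Many of these genes are targets of E2F, a family of factors that act at the entry into S phase.

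Library totals ranged from 2494880 to 3808843 counts. Lmna, the targeted gene, had 2826 and 2684 counts in the shControl libraries and 331 and 480 in the shLmna libraries, a log2 fold change of -2.61 (adjusted p 7.93e-06 in edgeR, SE 0.142), so the libraries carried the reduction their labels give. Of 7 melanocyte lineage markers, 6 had at least 252 counts in every library and Tyr had 1 to 7. Their summed level in CPM, the count scaled to the library total with TMM factors, was 20117 to 20891 in shControl and 21156 to 24602 in shLmna. Single markers moved in opposite directions: Sox10, a lineage factor, fell (log2 fold change -0.89, edgeR adjusted p 0.00161), and the pigment cell genes Mlana (0.51, adjusted p 0.00510) and Pmel (0.41, adjusted p 0.0258) rose, while Mitf, at -0.37, did not pass (adjusted p 0.0804). Their part in the results below was not tested. The 5 fibroblast markers summed to 13.3 to 17.4 CPM in shControl and 10.9 to 11.5 in shLmna, with Thy1 at 0 in every library. The 3 endothelial markers summed to 0.619 to 1.07 and 0 to 0.272 CPM, with Cdh5 and Kdr at 0, and the 3 blood markers to 14.5 to 16.4 and 10.7 to 12.0 CPM, nearly all from Cd68, with Ptprc and Cd3e at 0.

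Most replication genes differed little between lamin A/C knockdown and control cells. The summed level of all 43 was 6571 and 6238 CPM in shControl 1 and 2 and 6337 and 6024 CPM in shLmna 1 and 2, so the groups overlapped. The median log2 fold change of the 41 tested genes, shLmna over shControl, was -0.01, beside -0.00107 over all 9150 tested genes, with 21 below 0 and 20 above. It became 0.02 with upper-quartile scaling or with library totals alone, and lay between -0.06 and 0.07 over the fits that left out a library. Only 4 of the 41 genes had an adjusted p under 0.05 in the quasi-likelihood test of edgeR. Gins4, Pcna and Rfc4 fell, against 9.74% of all tested genes that were lower, and Rpa1 rose, against 5.48% that were higher. The members' share past the adjusted test, 9.76%, was below the 15.2% of all tested genes. DESeq2 called 2 members lower and 1 higher, against 9.21% of all genes it tested in either direction. Limma on the batch-corrected values called 10 of 42 lower and 7 higher, against 36.3% of the 10417 genes tested there, so a call in limma was common among all genes.

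The study's own limits also asked for a log2 fold change over 1 in size and a mean normalized count over 5. With them 1 replication gene was lower (Rfc4, against 5.88% of all tested genes) and 0 were higher (against 1.76%). At an unadjusted p under 0.05 there were 8 lower and 6 higher, 14 of 41, against 30.1% of all tested genes. The libraries of the groups did not overlap for 21 of the 41 genes (11 lower, 10 higher), against 60.1% of all tested genes. For 33 of 41 the whole 95% interval of the log2 fold change lay between -1 and 1, which held for 66% of all tested genes. A change by a factor of 2 was therefore outside the interval for most replication genes. Gins4, Pcna and Rpa1 passed with estimates under a factor of 2. The count depended on single libraries. Without shLmna 1, 1 replication gene was lower (Rfc4) and 0 were higher, and without shLmna 2 there were 2 lower (Pcna and Rfc4) and 0 higher. Without shControl 1 there were 3 lower and 2 higher (Cdc45 and Rpa1), and without shControl 2 there were 4 lower, with Mcm5 added, and 2 higher (Orc2 and Rpa1).

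**Figure D1:**
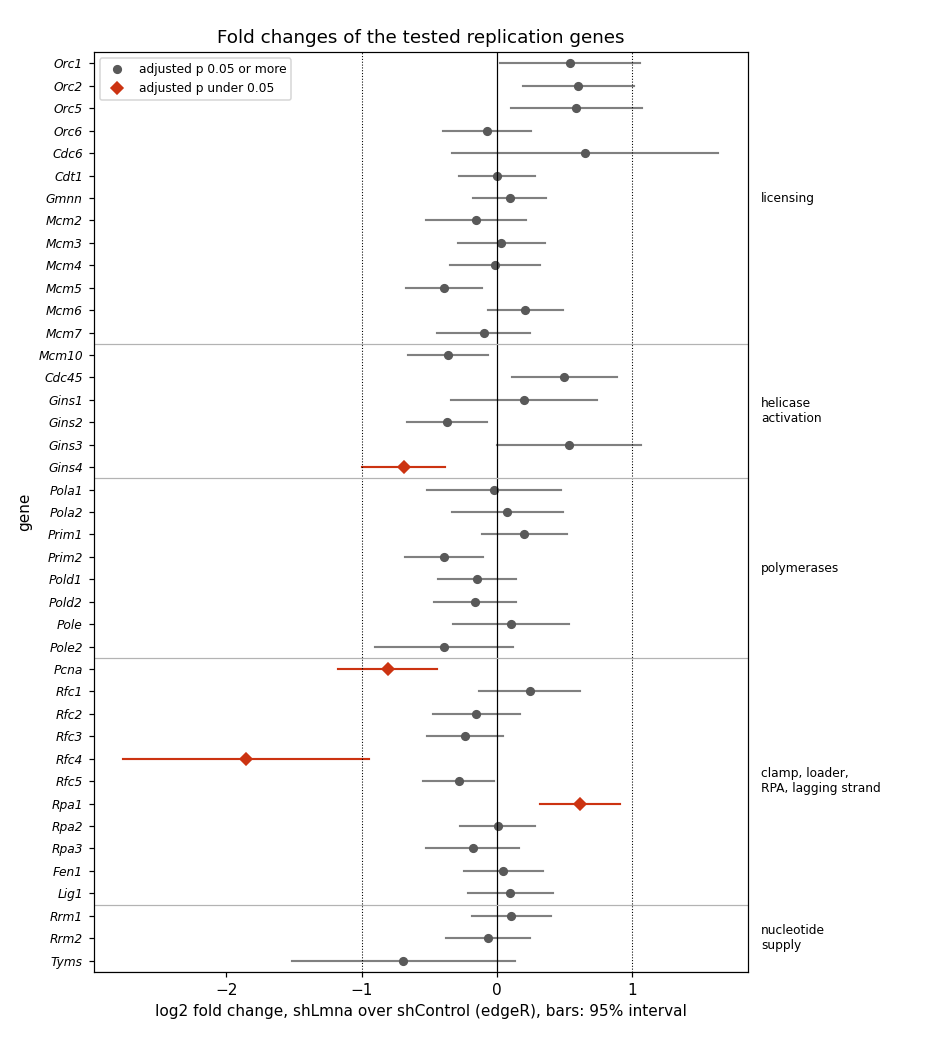
Log2 fold change of each of the 41 tested replication genes, shLmna over shControl, from edgeR (x axis), by gene and role (y axis); bars are 95% intervals and dotted lines mark -1 and 1. Red diamonds are the 4 genes with an adjusted p under 0.05: Gins4, Pcna and Rfc4 to the left of 0 and Rpa1 to the right.

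**Figure D2:**
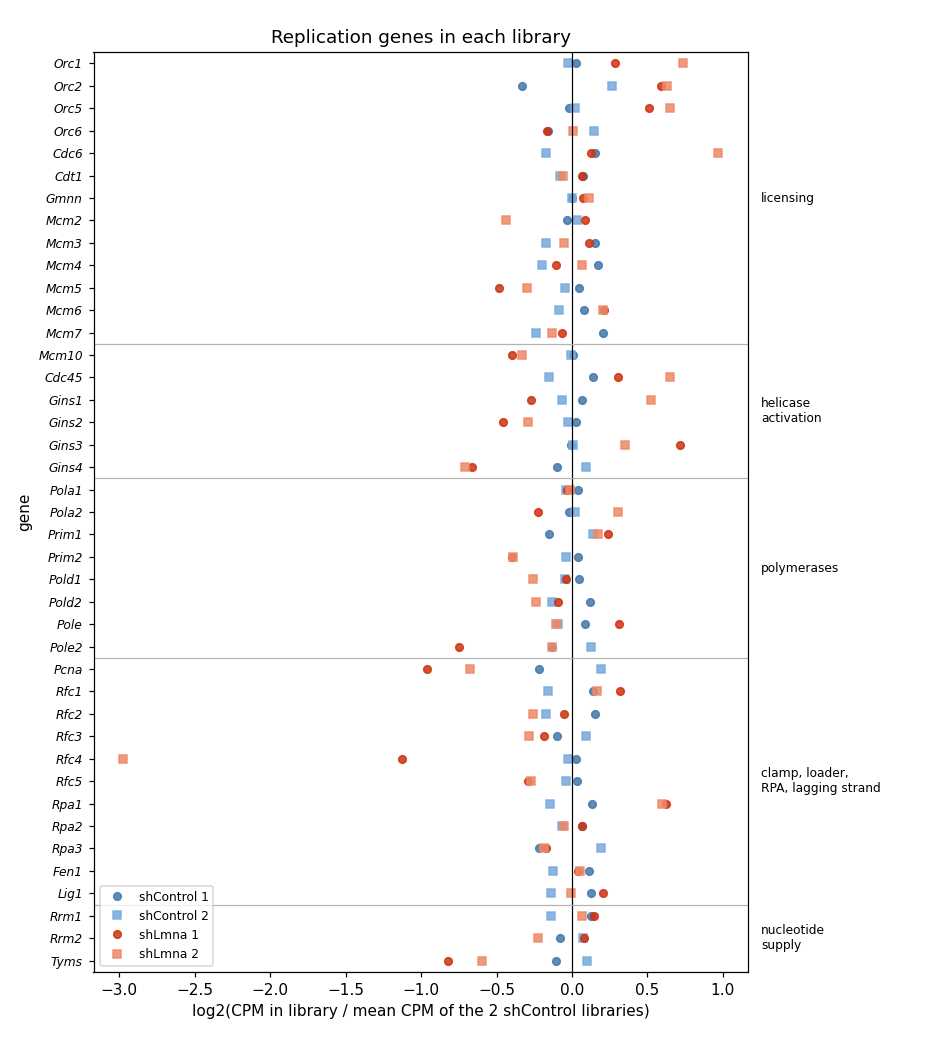
CPM of each replication gene in each library, as log2 of its ratio to the mean of the 2 shControl libraries (x axis), by gene and role (y axis); blue symbols are shControl 1 and 2 and red symbols shLmna 1 and 2. Most genes lie within 0.5 of 0 in all libraries, and Rfc4 in shLmna 2 lies farthest to the left.

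No licensing gene passed the adjusted test of edgeR. Of 15 listed, 13 were tested, 0 passed in edgeR or in DESeq2, 4 had an unadjusted p under 0.05 in edgeR, and limma called 5 in the batch-corrected values. Among all tested genes 15.2% passed in edgeR, 9.21% passed in DESeq2 and 30.1% had an unadjusted p under 0.05. Limma called 36.3% of the genes tested there. The median log2 fold change of the licensing genes was 0.03 (0.06 to 0.18 with 1 library left out). Their summed level was 2702 and 2479 CPM in shControl and 2652 and 2472 CPM in shLmna. Since a CPM value here counts 3′ ends and was not divided by transcript length, levels are compared between libraries of a gene and not between genes.

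Of the ORC, which binds origins, 3 of the 4 tested subunits had log2 fold changes over 0.5, each with an unadjusted p under 0.05 and none past the adjusted test of edgeR or DESeq2. All 3 of them, Orc1, Orc2 and Orc5, passed in limma on the batch-corrected values (adjusted p 0.0356, 0.0195 and 0.00864). Over all tested genes, 30.1% had an unadjusted p under 0.05 in edgeR, and limma called 36.3% of the genes tested there. Orc2 had 59.2 and 89.4 CPM in shControl and 112 and 115 CPM in shLmna. Both shLmna libraries lay above both shControl libraries, with the shControl libraries apart from each other. Its log2 fold change was 0.60 (adjusted p 0.0539 in edgeR, SE 0.183), and it became 0.34 without shControl 1 (adjusted p 0.126) and 0.94 without shControl 2 (adjusted p 0.000156). The call of Orc2 depended on the setting: its edgeR adjusted p was under 0.05 with upper-quartile scaling (0.0447), library totals (0.0393), no filter (0.00116), the replicate block (0.00053) or recovered counts (0.0297), and it was 0.0915 in DESeq2, 0.143 without shLmna 1 and 0.167 without shLmna 2. The counted window of Orc2 overlaps Nif3l1 on the opposite strand, and 67.6% of its 31-base stretches also occur in transcripts of other genes, so its counts are uncertain unless strand was used. Nif3l1 itself had a log2 fold change of -0.10. Orc1, an ATPase of the complex, had 63 and 70 counts against 59 and 117, with a log2 fold change of 0.54 (adjusted p 0.147 in edgeR, SE 0.231). Its high library was shLmna 2, without which the value was 0.29. Orc5 had 53 and 63 counts against 60 and 96, and a log2 fold change of 0.59 (adjusted p 0.102 in edgeR, SE 0.217). Orc6, by contrast, had 106 and 131 CPM in shControl and 106 and 119 CPM in shLmna. Its groups overlapped, with a log2 fold change of -0.07. The median over these 4 subunits was 0.56, and it was 0.57 to 0.60 under the other scalings and 0.49 with base-composition offsets. It was 0.40 without shLmna 2, 0.46 without shControl 1, 0.56 without shControl 2 and 0.64 without shLmna 1. In the batch-corrected values it was 0.14. Values there were also smaller in size for Gins4 (-0.30), Pcna (-0.45), Rfc4 (-0.51) and Rpa1 (0.37). In edgeR these genes had -0.69, -0.81, -1.85 and 0.61, so the 0.14 is not read as a weaker change of the ORC.

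Neither the loading factors nor their inhibitor passed the adjusted test of edgeR. Cdt1, which brings the MCM ring to the ORC, had 239 and 215 CPM in shControl and 238 and 217 CPM in shLmna, with a log2 fold change of 0.00 (95% interval -0.28 to 0.28). Gmnn, its inhibitor, had 113 and 114 CPM against 119 and 123 CPM, a log2 fold change of 0.09 (95% interval -0.18 to 0.37), and the groups lay close together without overlap. Cdc6, the ATPase that works with the ORC, rested on 13, 12, 10 and 26 counts, and its log2 fold change of 0.65 had an interval from -0.33 to 1.64. It rested on shLmna 2, since it was 0.13 without that library and 0.97 without shLmna 1. At this depth a change of Cdc6 by a factor of 2 could not be told from no change.

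The 6 genes of the MCM ring, the core of the replicative helicase, all had 95% intervals between -1 and 1. Of these 0 passed in edgeR or DESeq2, 1 had an unadjusted p under 0.05 in edgeR, and limma called 2 in the batch-corrected values. An unadjusted p under 0.05 was found in 30.1% of all tested genes, and limma called 36.3% of those tested there. Mcm2 had 531 and 556 CPM in shControl and 577 and 401 CPM in shLmna. The shLmna libraries lay on either side of the shControl pair, and the log2 fold change was -0.15 (adjusted p 0.578 in edgeR, SE 0.165). Mcm3 had 445 and 355 CPM against 433 and 386 CPM, with overlap and a log2 fold change of 0.03 (adjusted p 0.907 in edgeR, SE 0.143). Mcm5 was the lowest of the ring. It had 306 and 287 CPM in shControl and 212 and 241 CPM in shLmna, without overlap. Its log2 fold change of -0.39 (SE 0.126) had an edgeR adjusted p of 0.0689, and the adjusted p was under 0.05 with base-composition offsets (0.0305), without the filter on low counts (0.0383), without shControl 2 (0.0419), with the replicate block (0.0217) and in limma on the batch-corrected values (0.0309). It was above 0.05 in DESeq2 (0.102), without shControl 1 (0.104), without shLmna 1 (0.354, with a log2 fold change of -0.30) and without shLmna 2 (0.110). Mcm6 lay on the other side, at 330 and 294 CPM in shControl and 362 and 360 CPM in shLmna, with a log2 fold change of 0.21 and an interval from -0.06 to 0.49. Mcm4 (-0.01) and Mcm7 (-0.10) overlapped between groups. The median of the ring was -0.06, with values of -0.16 to 0.16 over the fits that left out a library.

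Promoters are shown for Mcm2 and Mcm3, the members with the largest mean CPM among those that did not pass, so that they can be set beside those of the genes that did. Each window runs from 250 bases before the transcription start to 50 bases after it, as RefSeq gives it on GRCm38.p6, on the strand of the gene and written 5′ to 3′. Capitals mark the motifs searched on both strands: the E2F core (TTTCCCGC, TTTCGCGC, TTTGCCGC or TTTGGCGC), the CCAAT box (CCAAT) and the cell cycle homology region, CHR (TTTGAA). Positions count from the transcription start, base 1, and -1 is the base before it. The Mcm2 window is chr6:88898731-88899030 on the minus strand, with a CCAAT box at -175, read on the other strand, a CHR at -70 and 0 E2F cores. The Mcm3 window is chr1:20820263-20820562 on the minus strand, with E2F cores at 20 and 39 and 3 CCAAT boxes.
Mcm2: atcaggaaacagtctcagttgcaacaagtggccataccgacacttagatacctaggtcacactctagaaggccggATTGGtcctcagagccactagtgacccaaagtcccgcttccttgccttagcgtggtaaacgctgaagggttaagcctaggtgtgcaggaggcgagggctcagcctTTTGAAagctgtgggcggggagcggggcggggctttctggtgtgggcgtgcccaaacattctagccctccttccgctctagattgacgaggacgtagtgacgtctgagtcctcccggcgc
Mcm3: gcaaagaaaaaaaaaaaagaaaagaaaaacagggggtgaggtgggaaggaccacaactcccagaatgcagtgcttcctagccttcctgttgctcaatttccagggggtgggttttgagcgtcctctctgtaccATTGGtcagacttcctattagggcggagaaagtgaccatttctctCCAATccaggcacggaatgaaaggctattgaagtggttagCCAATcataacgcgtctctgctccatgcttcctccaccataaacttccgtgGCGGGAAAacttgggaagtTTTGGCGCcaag

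A larger share of these promoters held the E2F core than of all promoters in the table. It stood in at least 1 window of 14 of the 35 members that RefSeq lists (40.0%), against 704 of 27025 genes (2.60%) and 744 of 32851 promoters of the same length (2.26%). The CCAAT box was in 23 of 35 (65.7%), against 41.1% of genes, and the CHR in 5 of 35 (14.3%), against 20.2%. The members with the core were Mcm3, Mcm5, Mcm6, Mcm7, Orc1, Orc3, Cdc6, Cdt1, Gins3, Rfc3, Pola1, Pold1, Pole2 and Lig1. Median GC content of the windows was 61.3% in the members and 52.7% in all promoters, and its part in these shares was not tested. Of the 13 tested genes with the core, 0 passed the adjusted test in edgeR or DESeq2, 3 had an unadjusted p under 0.05, limma called 5 in the batch-corrected values, and the median log2 fold change was 0.00 (-0.07 to 0.14 with 1 library left out). Of the 20 tested genes with a listed promoter and no core, 3 passed in edgeR (Pcna, Rfc4 and Rpa1) and the median was -0.03. These 3 are 15% of the 20, near the 15.2% of all tested genes that passed in edgeR. DESeq2 called 9.21% of all genes and 30.1% had an unadjusted p under 0.05, while limma called 36.3% of those tested there. The genes with and without the core were not tested against each other. Mcm4, Gmnn, Gins1, Gins2, Gins4, Rfc2, Prim2 and Pole had no entry.

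Stretches around the core are shown for 6 licensing genes, chosen after their values were seen, because 8 of the 14 members with the core were licensing genes. Capitals mark the core and up to 16 bases stand on either side. On GRCm38.p6 they are chr8:75109344-75109383 for Mcm5 (plus strand, core at -149, which overlaps another at -153), chr1:128359729-128359768 for Mcm6 (minus strand, -47), chr5:138171844-138171883 for Mcm7 (minus strand, 17, sharing its last base with a CCAAT box), chr4:108579411-108579450 for Orc1 (plus strand, -27), chr11:98907997-98908036 for Cdc6 (plus strand, -138) and chr8:122568031-122568064 for Cdt1 (plus strand, 33). The log2 fold changes of the same genes were -0.39, 0.21, -0.10, 0.54, 0.65 and 0.00 in that order. A match of letters is a description of the window and not evidence of binding.
Mcm5: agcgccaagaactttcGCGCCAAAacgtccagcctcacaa
Mcm6: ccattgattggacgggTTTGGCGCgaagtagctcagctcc
Mcm7: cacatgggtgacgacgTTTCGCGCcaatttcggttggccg
Orc1: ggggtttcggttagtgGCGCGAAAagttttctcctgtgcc
Cdc6: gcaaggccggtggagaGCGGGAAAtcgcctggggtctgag
Cdt1: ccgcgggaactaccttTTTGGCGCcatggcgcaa

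Among the 6 helicase activation genes, Gins4 fell and the others did not pass the adjusted test of edgeR or DESeq2. In edgeR 5 of the 6 had an unadjusted p under 0.05, against 30.1% of all tested genes. Limma on the batch-corrected values called Gins2, Gins4 and Mcm10 lower and Gins3 higher, against 36.3% of the genes tested there. The group as a whole was not tested. Gins4, a subunit of the GINS complex that joins the MCM ring, had 343 and 455 counts in the shControl libraries and 182 and 256 in the shLmna libraries, which is 106 and 122 CPM against 72.0 and 69.7 CPM. The shLmna libraries agreed closely and both lay below both shControl libraries. Its log2 fold change was -0.69 (SE 0.137, 95% interval -0.99 to -0.38, edgeR adjusted p 0.00887), a fold of 0.620. Its 3′ window shares 0 of its 31-base stretches with other genes and overlaps none. Leaving out either shLmna library kept the value (-0.71 and -0.66) but took the adjusted p to 0.0501 without shLmna 1 and to 0.0636 without shLmna 2.

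The other GINS subunits did not pass in edgeR or DESeq2, and their values lay on both sides of 0. Gins2 had 112 and 108 CPM in shControl and 79.9 and 89.6 CPM in shLmna, without overlap, and a log2 fold change of -0.37 (adjusted p 0.0912 in edgeR, SE 0.132; 0.0206 in limma on the batch-corrected values). The whole counted window of Gins2 lies within transcripts of Gse1 on the opposite strand, so the 2 genes cannot be told apart without strand, and Gse1 had a log2 fold change of 0.37. Gins3, with 48, 56, 62 and 70 counts, had 0.53 (adjusted p 0.166 in edgeR, SE 0.238) and passed in limma on the batch-corrected values (adjusted p 0.0269). Gins1 had 40.0 and 36.4 CPM in shControl and 31.6 and 54.8 CPM in shLmna, so its shLmna libraries lay on either side of the controls. Its log2 fold change was 0.20, and it was 0.52 without shLmna 1 and -0.27 without shLmna 2.

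Cdc45, which joins the MCM ring together with GINS, had 182 and 172 counts against 160 and 295, and 63.3 and 80.4 CPM in the shLmna libraries. Scaled to the library totals, the groups did not overlap, and the log2 fold change of 0.50 (SE 0.174) had an edgeR adjusted p of 0.0852. The adjusted p was 0.0170 without shControl 1, 0.0265 without the filter and 0.0201 with the replicate block. It was 0.227 without shControl 2 (log2 fold change 0.36), 0.0910 without shLmna 1 (0.65) and 0.461 without shLmna 2 (0.31), and 0.293 in DESeq2 and 0.0557 in limma. Mcm10, which binds the helicase as it is activated, had 92.3 and 91.3 CPM against 69.6 and 73.0 CPM. Replicates lay close together in both groups, with a log2 fold change of -0.36 (adjusted p 0.0980 in edgeR, SE 0.132; 0.0174 in limma on the batch-corrected values). The median of the group was -0.08, which became -0.33 without shLmna 2, 0.03 without shLmna 1, -0.03 without shControl 1 and -0.11 without shControl 2. Its summed level was 422 and 418 CPM in shControl and 341 and 387 CPM in shLmna.

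No polymerase gene passed the adjusted test of edgeR. Of 8 genes, 0 passed in edgeR or DESeq2, 1 had an unadjusted p under 0.05 and limma called 2 in the batch-corrected values. For all tested genes these shares were 30.1% at an unadjusted p under 0.05 and, among those tested there, 36.3% in limma. All 8 polymerase genes had intervals between -1 and 1, and their median log2 fold change was -0.08 (-0.13 to -0.0067 with 1 library left out). Their summed level was 768 and 742 CPM in shControl and 716 and 689 CPM in shLmna. Pold1, the catalytic subunit of polymerase delta, had 240 and 224 CPM in shControl and 226 and 194 CPM in shLmna. Its groups overlapped, with a log2 fold change of -0.15 (adjusted p 0.480 in edgeR, SE 0.128). Pold2, a regulatory subunit of the same enzyme, had 169 and 142 CPM against 146 and 132 CPM, with overlap and a log2 fold change of -0.16 (adjusted p 0.462 in edgeR, SE 0.136).

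Pole, the catalytic subunit of polymerase epsilon, had a log2 fold change of 0.11 with overlapping libraries. Its partner Pole2 had 36.2 and 43.4 CPM in shControl and 23.7 and 36.2 CPM in shLmna. The library shLmna 2 came close to shControl 1, and the log2 fold change of -0.39 had an interval from -0.90 to 0.12. In the polymerase alpha and primase complex, Pola1 (-0.02) and Pola2 (0.08) overlapped between groups. Prim1, the catalytic primase subunit, had 0.20, and Prim2, the large subunit, had 109 and 104 CPM against 81.1 and 81.5 CPM. Prim2 was the 1 gene of the group with an unadjusted p under 0.05, and its log2 fold change of -0.39 (SE 0.128) had an edgeR adjusted p of 0.0712, which was 0.0390 with base-composition offsets and 0.00817 in limma on the batch-corrected values.

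The genes of the clamp, its loader, RPA and the lagging strand held 3 of the 4 that passed. Of 11 genes tested, Pcna and Rfc4 fell, Rpa1 rose and 8 did not pass in edgeR, and limma on the batch-corrected values called Rfc5 lower and Rfc1 higher as well. In DESeq2 Pcna and Rpa1 passed and Rfc4 did not. The shares over all tested genes were 15.2% in edgeR, 9.21% in DESeq2 and, among the genes tested there, 36.3% in limma. The group as a whole was not tested. The median log2 fold change was -0.15, and it depended on single libraries: 0.01 without shControl 1, -0.07 without shControl 2, -0.19 without shLmna 1 and -0.05 without shLmna 2. Their summed level was 2020 and 1979 CPM in shControl and 1935 and 1858 CPM in shLmna.

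Pcna encodes the ring that clamps polymerases to DNA. It had 819 and 1259 counts in the shControl libraries and 384 and 679 in the shLmna libraries, or 254 and 337 CPM against 152 and 185 CPM. Both shLmna libraries lay below both shControl libraries, and the controls lay well apart from each other. The log2 fold change was -0.81 (SE 0.164, 95% interval -1.17 to -0.44, edgeR adjusted p 0.00975), and it was -0.996 without shControl 1 and -0.59 without shControl 2. Without shLmna 1 the adjusted p was 0.0686. Of the 31-base stretches of its 3′ window, 40.0% also occur in Pcna-ps2 or Gm29809, which makes the count of Pcna uncertain. Its 3′ window was 37.9% GC, in the class of lowest GC content, where many genes were lower, and with base-composition offsets its log2 fold change was -0.81.

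Rfc4 encodes a small subunit of the clamp loader and gave the largest change of the 41 genes in size. It had 162 and 180 counts in the shControl libraries and 57 and 23 in the shLmna libraries, or 50.2 and 48.2 CPM against 22.5 and 6.27 CPM. The shControl libraries nearly coincided, the shLmna libraries were both lower, and shLmna 2 stood far below shLmna 1. The log2 fold change was -1.85 (SE 0.407, 95% interval -2.76 to -0.94, edgeR adjusted p 0.0138). It was -2.97 without shLmna 1 and -1.12 without shLmna 2, so its size rests on shLmna 2. In DESeq2 the value was -1.78 with an adjusted p of 0.204. The counted window overlaps Eif4a2 on the opposite strand, with 16.1% of 31-base stretches shared, and Eif4a2 had 40 and 54 counts against 16 and 34 (log2 fold change -0.76, edgeR adjusted p 0.120).

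Rpa1 encodes the large subunit of RPA and was the 1 replication gene that rose. It had 981 and 937 counts in the shControl libraries and 1081 and 1542 in the shLmna libraries, or 304 and 251 CPM against 428 and 420 CPM. The shLmna libraries lay close together and above both shControl libraries. Its log2 fold change was 0.61 (SE 0.133, 95% interval 0.32 to 0.91, edgeR adjusted p 0.0132), a level 52.9% higher, and its 3′ window shares 0 stretches with other genes. It was 0.60 without shLmna 1 and 0.62 without shLmna 2, with adjusted p of 0.0694 and 0.0542.

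**Figure D3:**
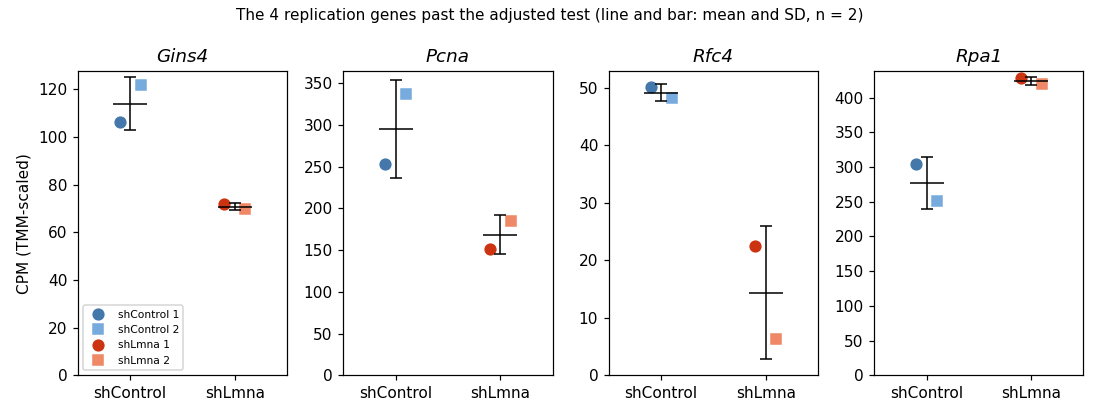
CPM (y axis, from 0) of Gins4, Pcna, Rfc4 and Rpa1 in the 2 shControl and 2 shLmna libraries; points are libraries, and the line and bar are the mean and SD (n = 2). The groups do not overlap in any panel, and the shLmna libraries of Rfc4, at 22.5 and 6.27 CPM, lie farther apart than its controls.

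The promoters of these 3 genes are shown because they are the listed ones among the genes that passed, and none of them holds the E2F core as spelled above. The Pcna window is chr2:132253131-132253430 on the minus strand, with 1 CCAAT box at -87, read on the other strand. The Rfc4 window is chr16:23127681-23127980 on the minus strand and holds 0 of the motifs. The Rpa1 window is chr11:75348334-75348633 on the minus strand, with 2 CCAAT boxes read on the strand of the gene.
Pcna: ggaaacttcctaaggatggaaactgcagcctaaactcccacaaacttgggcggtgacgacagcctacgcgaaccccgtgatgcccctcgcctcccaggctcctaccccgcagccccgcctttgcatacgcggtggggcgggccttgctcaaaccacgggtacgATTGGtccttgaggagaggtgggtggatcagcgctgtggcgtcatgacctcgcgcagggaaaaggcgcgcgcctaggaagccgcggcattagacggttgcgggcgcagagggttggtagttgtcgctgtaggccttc
Rfc4: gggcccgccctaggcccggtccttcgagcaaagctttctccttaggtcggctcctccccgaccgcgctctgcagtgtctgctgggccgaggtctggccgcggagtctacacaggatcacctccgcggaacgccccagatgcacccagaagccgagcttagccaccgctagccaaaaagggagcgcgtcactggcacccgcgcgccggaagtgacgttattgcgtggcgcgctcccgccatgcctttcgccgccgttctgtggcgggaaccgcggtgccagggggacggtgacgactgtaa
Rpa1: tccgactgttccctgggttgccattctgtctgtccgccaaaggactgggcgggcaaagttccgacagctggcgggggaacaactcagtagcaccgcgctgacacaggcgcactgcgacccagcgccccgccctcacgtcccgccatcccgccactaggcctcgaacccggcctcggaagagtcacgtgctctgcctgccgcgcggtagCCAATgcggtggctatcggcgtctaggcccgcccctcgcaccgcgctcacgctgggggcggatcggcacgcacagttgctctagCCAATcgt

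No partner subunit of these genes passed the adjusted test of edgeR or DESeq2, and 2 RFC partners, Rfc1 and Rfc5, passed in limma on the batch-corrected values (adjusted p 0.0349 and 0.0145). Rpa2, the middle subunit of RPA, had 244 and 222 CPM in shControl and 244 and 225 CPM in shLmna, so that each shLmna library fell beside a control, and the log2 fold change was 0.01 (adjusted p 0.983 in edgeR, SE 0.123). Rpa3, the small subunit, had a log2 fold change of -0.18 with overlap. Among the other RFC genes, Rfc1, the large subunit, had 0.24, Rfc2 had -0.15, Rfc3 had -0.24 and Rfc5 had -0.28. Rfc5 had an unadjusted p under 0.05 (edgeR adjusted p 0.138), and 57.2% of its stretches occur in other genes. Fen1, the flap endonuclease (0.05), and Lig1, the ligase that seals the lagging strand (0.10), overlapped between groups. For Fen1 94.1% of stretches also occur in the antisense gene Gm10143.

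Shares of single subunits within their complexes were also taken. They are shares of the raw counts of all subunit genes and are read across libraries only. Rfc4 made up 6.36% and 6.40% of the counts of the 5 RFC genes in shControl 1 and 2, and 3.33% and 1.01% in shLmna 1 and 2. Rpa1 made up 46.0% and 40.2% of the 3 RPA genes in shControl, and 54.2% and 55.2% in shLmna. Gins4 made up 38.9% and 43.3% of the 4 GINS genes in shControl, and 34.6% and 29.9% in shLmna. Groups did not overlap for any of these shares. Rfc4, Rpa1 and Gins4 had passed on the same counts, so this is not a separate result. In the MCM ring the share of Mcm6 was 15.4% and 15.6% in shControl and 17.9% and 19.7% in shLmna, that of Mcm5 was 14.3% and 15.2% against 10.5% and 13.1%, that of Mcm3 was 20.8% and 18.8% against 21.4% and 21.1%, and the shares of Mcm2, Mcm4 and Mcm7 overlapped. In the ORC the share of Orc6 was 52.3% and 50.7% against 39.4% and 40.8%, while its own log2 fold change was -0.07. The share of Orc2, whose counts are uncertain, was 29.1% and 34.6% against 41.6% and 39.3%. That of Orc5 was 8.08% and 6.54% against 8.85% and 8.94%, and that of Orc1 overlapped. The shares of a complex sum to a whole, so a change in 1 subunit moves the others, and none of these shares was tested.

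**Figure D4:**
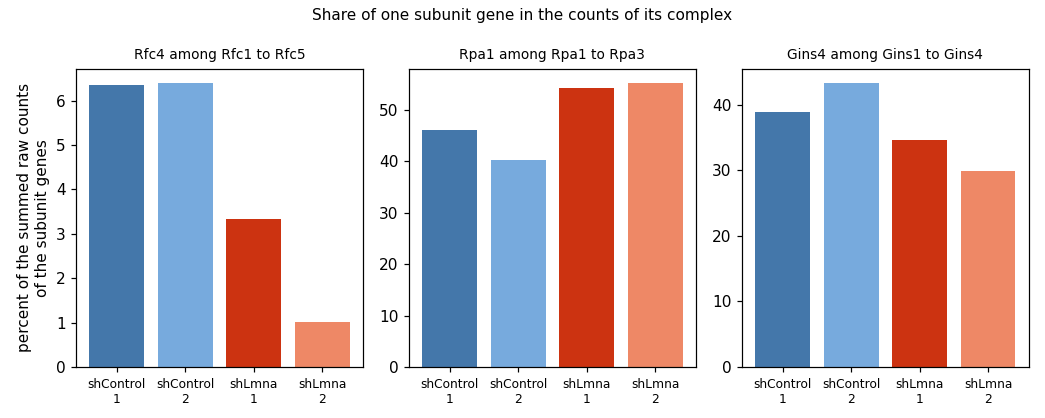
Percent of the summed raw counts of the subunit genes of a complex (y axis, from 0) that came from Rfc4 (RFC), Rpa1 (RPA) and Gins4 (GINS) in each library (x axis); each bar is 1 library. The shLmna bars are lower than both shControl bars for Rfc4 and Gins4 and higher for Rpa1.

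No gene of nucleotide supply passed the adjusted test of edgeR. Of 3 genes, 0 passed in edgeR or DESeq2, 0 had an unadjusted p under 0.05 and limma called 1 in the batch-corrected values. In all tested genes the share at an unadjusted p under 0.05 was 30.1%, and limma called 36.3% of those tested there. The median log2 fold change of the 3 genes was -0.07 (-0.22 to 0.08 with 1 library left out). Their summed levels were 659 and 620 CPM in shControl and 693 and 618 CPM in shLmna. Rrm1, the large subunit of ribonucleotide reductase, had 409 and 341 CPM in shControl and 416 and 392 CPM in shLmna. The groups overlapped, and the log2 fold change was 0.11 (adjusted p 0.632 in edgeR, SE 0.132). Rrm2, the small subunit that is made in S phase, had 244 and 271 CPM against 273 and 221 CPM, with the shLmna libraries on either side of the controls and a log2 fold change of -0.07 (adjusted p 0.801 in edgeR, SE 0.140). Tyms, which makes thymidylate, had 21 and 28 counts against 10 and 17. The groups did not overlap, and the log2 fold change of -0.69 had an interval from -1.51 to 0.13, so that at this depth neither 0 nor -1 was outside it.

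Other genes of the pathway were listed by role beside the members. Of 48 in the matrix, 41 were tested, 5 fell and 2 rose in edgeR, with a median log2 fold change of -0.06. The share that passed, 17.1%, was near the 15.2% of all tested genes (9.74% lower and 5.48% higher), so the genes named from this list are given as single values. Of the 8 tested genes of origin firing and its control, 1 fell. Topbp1, a scaffold at firing origins, went from 86.7 and 91.6 to 53.0 and 64.8 CPM (log2 fold change -0.59, SE 0.15, edgeR adjusted p 0.0269). Of 10 genes of fork protection and further polymerase or loader subunits, 2 fell. Pole4, an accessory subunit of polymerase epsilon, went from 595 and 759 counts to 54 and 186, with a 3′ window of 35.0% GC and a log2 fold change of -2.38 (adjusted p 0.000414 in edgeR, SE 0.276). Clspn, the checkpoint mediator claspin, had 62 and 80 counts against 23 and 38 (log2 fold change -1.05, SE 0.245, edgeR adjusted p 0.0186).

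Of 7 genes of strand maturation and topology, 1 fell: 2810417H13Rik, which encodes the PCNA-associated factor Pclaf, went from 54.8 and 52.7 to 29.3 and 27.5 CPM (log2 fold change -0.92, SE 0.169, edgeR adjusted p 0.00591). Of 8 genes of nucleotide pools, 1 rose: Rrm2b, the alternative small subunit of ribonucleotide reductase, with 1 and 10 counts against 19 and 25 (log2 fold change 2.16, SE 0.612, edgeR adjusted p 0.0410), so its size rests on few molecules. Of 8 genes of chromatin assembly, Asf1b, a histone chaperone, fell from 118 and 112 to 58.1 and 73.0 CPM (log2 fold change -0.80, SE 0.148, edgeR adjusted p 0.00628), and Supt16, a subunit of the chaperone FACT, rose from 76 and 69 to 149 and 145 counts (log2 fold change 1.22, SE 0.241, edgeR adjusted p 0.00880). In each of these 7 genes, named for their adjusted p, the groups did not overlap, as in 60.1% of all tested genes. The lack of overlap is no separate result. Without shLmna 1, 2 of the listed genes were lower and 0 higher, and without shLmna 2 there were 4 and 1.

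Several listed genes with few counts were seen almost only in shControl 2 and were not tested. Rif1 had 2, 56, 0 and 2 counts in shControl 1 and 2 and shLmna 1 and 2, Atad5 had 2, 43, 0 and 3, and the G1/S genes Hells and Ccne2 had 4, 91, 0 and 0, and 1, 15, 0 and 0. These genes were singled out after their counts were seen.

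Markers of cell cycle phase were set beside the members, since in bulk RNA fewer cells in S phase and less RNA per cell cannot be told apart. Of 11 G1/S genes outside the members, 9 were tested and 1 fell, E2f8, an atypical E2F repressor (206 and 264 counts against 53 and 136, log2 fold change -1.18, edgeR adjusted p 0.00833). Their median log2 fold change was -0.02, and their summed level was 502 to 558 CPM in shControl and 471 to 483 CPM in shLmna. Of 18 G2/M genes, all tested, 1 fell, the spindle checkpoint kinase Bub1, with 62 and 88 counts against 0 and 3 (edgeR adjusted p 0.000159), where shLmna was at the floor of 3 counts and no fold is given. The median of that list was -0.02, and the sums were 2906 to 3018 CPM in shControl and 2851 to 2962 CPM in shLmna. In edgeR 11.1% of the tested G1/S genes and 5.56% of the G2/M genes passed, against 15.2% of all tested genes. E2f8 and Bub1 are therefore given as single values. The part of cell cycle phase in the results of Gins4, Pcna, Rfc4 and Rpa1 was not tested.

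Base composition of the counted 3′ end went with the fold changes of all genes. Among the 1157 tested genes at or under 38% GC, 31.1% were lower at an adjusted p under 0.05, and the share was 4.48% to 9.24% in the classes above. The members lay mostly outside that class, with a median of 46.1% GC against 46.8% over all tested genes and only 3 members (Mcm4, Rrm1 and Pcna) in it. With offsets fitted to the trend, Gins4 (-0.75), Pcna (-0.81), Rfc4 (-1.92) and Rpa1 (0.56) all passed, and Mcm5 (-0.46) and Prim2 (-0.45) were added to the lower genes. Over all tested genes 867 were lower with these offsets, against 891 without them. Whether the trend was gone was not tested. Of the 43 members, 30 had a clear 3′ window, with under 10% of stretches shared and no overlapping gene. Of these 29 were tested and 2 passed in edgeR, Gins4 and Rpa1, while the windows of Pcna and Rfc4 were not clear. The share that passed was 6.90%, against 15.2% of all tested genes.

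**Figure D5:**
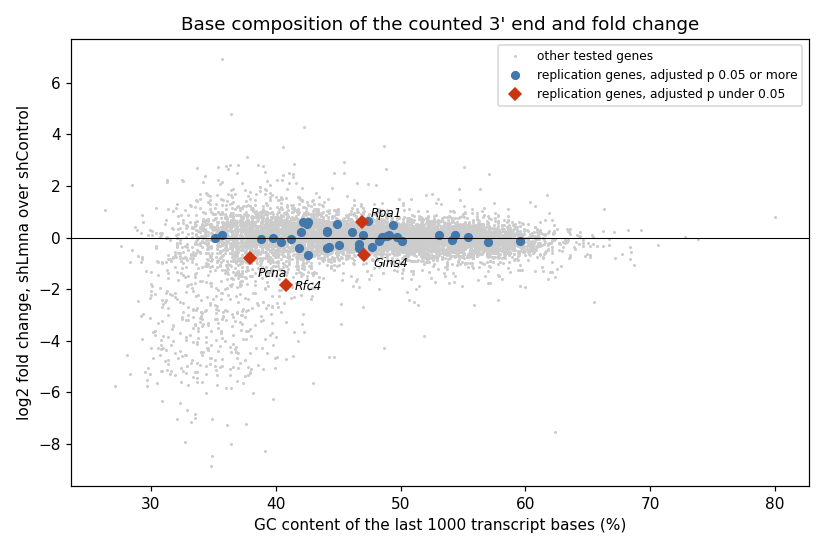
Log2 fold change of tested genes, shLmna over shControl (y axis), against GC content of the last 1000 transcript bases in percent (x axis); grey points are other genes, blue points replication genes and red diamonds the 4 with an adjusted p under 0.05. Strongly negative values gather at the left, under about 38% GC, where 3 replication genes lie.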

How the data were processed

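RNA of 4 libraries was profiled by bulk MARS-seq, a 3′ end method with unique molecular identifiers. Per the labels and the study's methods, the authors trimmed reads with Cutadapt, aligned them to mm10 with STAR 2.4.2a and counted reads over the last 1000 bases of RefSeq genes and 100 bases downstream with HTSeq. Whether strand was used in counting is not stated. Every main test used the raw counts that the authors deposited as a matrix. They also deposited a signal table, counts divided by DESeq2 size factors, and log2 values corrected for batch with ComBat; no batch was named. All signal values (100%) were whole multiples of 1 step per library (tolerance 0.01), and the matrix exceeded the recovered counts by 1.08 to 1.09 times. The authors' fold changes, p-values and calls, which that table also held, were not used. The matrix had 0 blank rows, 27 symbols like dates and 2 listed more than once, none of them a member.

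Groups and replicate numbers came from sample titles. Counts were tested in edgeR 4.0.16 (R 4.3.3) with TMM scaling, filterByExpr, a quasi-likelihood F test with group as the one term (two-sided) and Benjamini-Hochberg adjustment over all 9150 tested genes. The biological coefficient of variation was 0.126. SE were derived from the F statistic. A floor of 3 counts per library equals 0.803 to 1.19 CPM; such floors cover counting error only. Replicates differed by more than sampling noise (chi-square per degree of freedom 6.96 in shControl and 3.91 in shLmna). The script was tested on simulated data. The members, role groups and lists were chosen with earlier results of these data known. Members were given by library when their adjusted p was under 0.05, when their log2 fold change exceeded 1 in size, or when they were the 2 of their role group with the largest mean CPM; further members are given by library where their libraries did not overlap or their order is described, and these were chosen after their values were seen. Listed pathway genes were named at an adjusted p under 0.05. Promoters, from RefSeq on GRCm38.p6, were printed for members that passed and for the 2 most abundant that did not; 35 of 43 members matched. Windows, GC content and shared 31-base stretches came from GENCODE M21 transcripts on GRCm38. GC content was known for 96.3% of tested genes. The alternatives were RLE, upper-quartile and total-count scaling, no filter or a mean count of at least 20, DESeq2 1.42.0, a replicate block, each library left out, recovered counts, limma 3.58.1 on the batch-corrected values, and base-composition (GC) offsets.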

Additional observations from a re-analysis of the deposited data

How the results depend on the processing

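With 2 libraries a group, leaving 1 out assumes that the lone library varies like the others. The 4 genes that passed kept their direction in all 14 alternatives run. Their groups did not overlap and the alternatives drew on the same libraries, so a reversal could hardly occur. The kept direction is therefore not added support. The number of members that were higher, 1, became 2 with upper-quartile scaling, library totals or recovered counts, 3 without the filter or with the replicate block, and 7 with batch-corrected values. The number lower, 3, became 5 with the block or with GC offsets and 10 with batch-corrected values. The 1 member lower by the study's limits became 0 with DESeq2 and with batch-corrected values. In the batch-corrected values Rfc4 was at -0.51, and the other members that passed were smaller in size there too. Pathway genes, 5 lower and 2 higher, became 3 and 1 with DESeq2 and 8 and 8 with batch-corrected values, and 1 was higher with a mean count of at least 20. With 1 library left out, members lower ranged from 1 to 4 and higher from 0 to 2, and pathway genes lower from 2 to 6 and higher from 0 to 3. The causes were not tested.

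Over all tested genes, 891 were lower and 501 higher; this was 607 and 236 with DESeq2, 1220 and 852 with the block, 1988 and 1793 with batch-corrected values, and 525 to 1172 and 166 to 706 with 1 library left out. Members with values near 0 changed sign. With GC offsets Mcm3 was -0.0056 and Rpa2 -0.014. With 1 library left out Mcm3 ranged from -0.12 to 0.21, Rpa2 from -0.061 to 0.074, Rrm1 from -0.019 to 0.24, Rrm2 from -0.22 to 0.081 and Mcm2 from -0.44 to 0.086. Libraries of the same replicate number did not deviate together over all genes (correlation of deviations 0.015). With so few libraries a single correlation cannot show whether the numbers pair the samples by design. The replicate block adds a term to a fit of 4 libraries, so its adjusted p-values rest on little information about spread. The adjusted p of Rfc4 ranged from 4.89e-13 to 0.204 over its alternatives, that of Gins4 from 9.41e-05 to 0.0636, that of Pcna from 2.38e-07 to 0.0686 and that of Rpa1 from 6.64e-05 to 0.0694. Gins2 passed with batch-corrected values (-0.15, limma adjusted p 0.0206).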
